A study of Mus musculus with 6 samples.

Results

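Macrophages of the omentum (OM) and of the mesenteric adipose tissue (MY) were compared before any tumor cell was injected. The comparison took the 7056 genes, of the 23946 in the table, that had an FPKM of at least 10 in 1 or both of the naive libraries. FPKM are fragments per kilobase of transcript, scaled to the fragments mapped, so levels may be compared between genes. Both groups were macrophages from tumor-free, untreated C57BL/6 mice, labeled as normal, that were dissociated with an adipose tissue kit and sorted by flow cytometry as CD45+ CD11b+ F4/80+ cells. The tissues of several animals were pooled for a library, and each depot had 1 naive library. The study set these depots side by side to ask how macrophages of the omentum, a common site of ovarian cancer spread, differ from those of another visceral fat depot. The other 4 libraries, OM and MY at 24 h and 7 d after ID8 ovarian cancer cells were injected into the peritoneal cavity, are used below only to see where a naive difference recurred. No condition had a replicate, so no p-value is given, and every difference describes these libraries and not the tissues in general.

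Serosal and adipose macrophages clear dying cells and microbes and hold several programs at once. Long-lived resident cells carry endocytic receptors such as LYVE1, CD163 and TIM4, monocyte-derived cells carry CCR2, and macrophages in the sinuses of lymphoid organs carry MARCO, SIGN-R1 and CD169. The omentum is a fold of adipose tissue with milky spots, which are clusters of B cells, macrophages and other leukocytes open to the peritoneal fluid. The mesentery carries the vessels and lymph nodes of the gut. Whether nodes were dissected away before dissociation is not given in the sources used here.

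The difference of a gene is given as log2(FPKM + 1) in naive OM minus that in naive MY, called log2 difference, so a positive value means a higher level in OM and 1 means 2-fold. Where 2 FPKM values are set against each other, OM comes first. Of the 7056 genes, 603 (8.55%) were at least 2-fold higher in OM and 554 (7.85%) at least 2-fold lower, while 5899 lay within 2-fold, as the plot of naive OM against naive MY shows. The median log2 difference over all of them was 0.043. The shares of 8.55% and 7.85% are the ones to set beside each count of list members below. At 8-fold, 130 genes were higher and 75 lower. Among the 5749 genes at 10 or more in both libraries, 299 were higher and 219 lower. A further 627 genes passed the filter only in OM and 680 only in MY, and since such genes had to be lower in the other library, their counts do not support a direction. Just inside the filter lay Ankrd49 (10.01 against 7.16) and Arntl (8.17 against 10.01), and just outside it Tspyl2 (6.29 against 9.999) and Med12 (7.69 against 9.998). The FPKM values of the table summed to 620700 in OM and 526887 in MY. Rescaling both to the same sum moved the median of all 7056 genes to -0.19 and the share of higher genes among those past 2-fold from 52.1% to 39.6%. Read counts are not in the table. The commonest ratio among 527 genes below 0.1 in both libraries corresponded to a depth of OM of about 0.857 times that of MY.

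**Figure D1:**
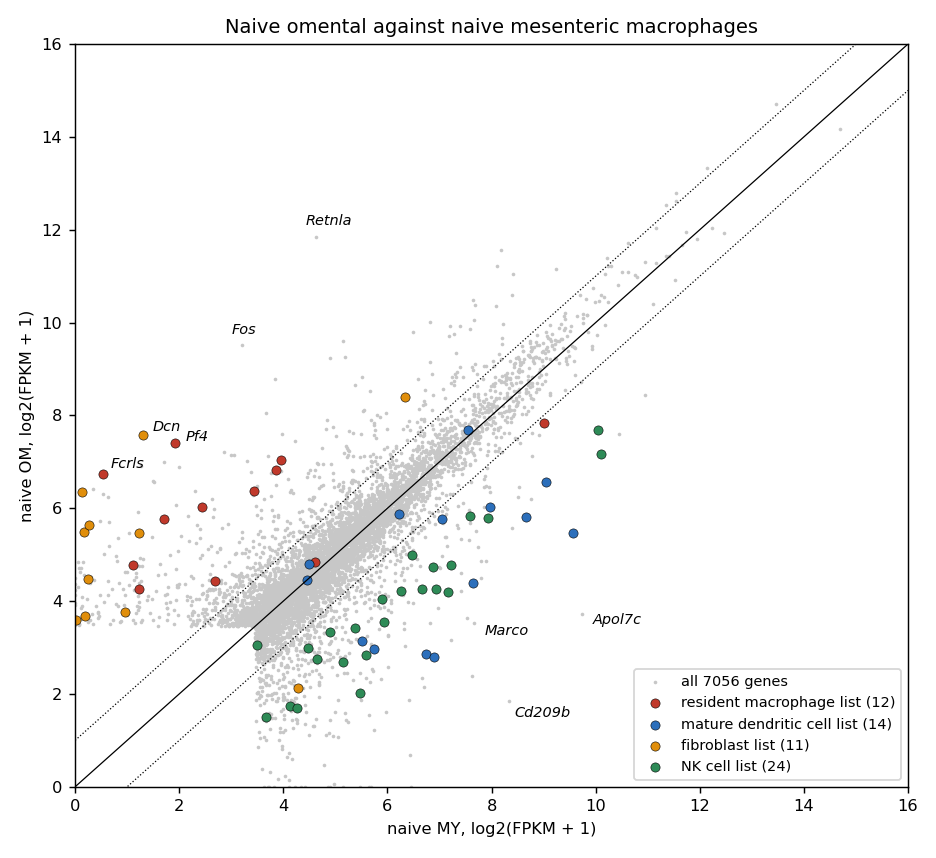
Level of each of the 7056 genes in naive MY (x axis) and naive OM (y axis), both as log2(FPKM + 1), with 1 library per axis. The solid line marks equal levels and the dotted lines 2-fold. Most fibroblast (orange) and resident macrophage (red) list genes lie above the lines, and most mature dendritic cell (blue) and NK cell (green) list genes below them.

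The sort markers were present in both libraries. Ptprc, which encodes CD45, had an FPKM of 182 in naive OM and 188 in naive MY (log2 difference -0.048). Emr1, the gene of F4/80, had an FPKM of 27.4 in naive OM and 20.5 in naive MY (log2 difference 0.40), while Itgam, the gene of CD11b, differed more, at 91.2 against 32.6 (1.46). Of 19 core macrophage genes, 15 passed the filter, all in both libraries, with a median log2 difference of 0.33. The receptor for macrophage colony-stimulating factor, Csf1r, stood at 132 against 121, the myeloid regulator Spi1 at 377 against 405 and the adaptor Tyrobp at 980.2 against 1159, so these defining genes lay within 2-fold of each other in the depots. The lysozyme gene Lyz2 (7054 against 2968, 1.25), Cebpb (471 against 209, 1.17) and Cd68 (199 against 94.7, 1.06) were higher in OM. Aif1, which encodes the actin-binding protein IBA1, was the only one of the 15 at least 2-fold lower, at 87.3 against 366 (-2.06).

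Genes of other cells were present in both libraries, and they differed between the depots. The counts of their lists stand beside 8.55% of all genes compared that were higher in OM and 7.85% that were lower. Of 15 B cell genes, 13 passed the filter and 11 were higher in OM, with Ms4a1 (CD20) at 883 against 88.8 and Cd79a at 1551 against 336. Vpreb3 (4.07 against 47.1, -3.25) and Fcer2a, the gene of the low-affinity IgE receptor (20.2 against 51.8, -1.32), ran the other way. T cell genes were lower in OM for 18 of 20 members of the list. The T cell receptor subunit Cd3e stood at 28.003 against 237, the kinase Lck at 46.6 against 333, the co-receptor Cd8b1 at 4.196 against 195 (-5.24) and the transcription factor Lef1 at 4.06 against 99.9 (-4.32). Ctla4, an inhibitory receptor, was the 1 member of the list higher in OM (25.7 against 10.7, 1.19). All 24 NK cell genes passed and 23 were lower in OM, among them the granzyme Gzma (142 against 1092, -2.93), the activating receptor Ncr1 (26.2 against 148, -2.45) and the cytotoxic granule gene Nkg7 (205 against 1050, -2.35). Of the T cell members, 12 had passed only in MY, and of the NK cell members 11, which by itself made these lower in OM. Summed over the 21 T cell genes, the FPKM was 591 in OM and 2079 in MY, over the 24 NK cell genes 697 and 3781, and over the 15 B cell genes 6203 and 1487. In a bulk library fewer cells of a type and less RNA per cell cannot be told apart.

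Granule genes of neutrophils were higher in OM for all 12 members of their list, beside 8.55% of all genes compared. Of the 12, 8 were at 10 or more in both libraries. The calprotectin subunits S100a8 and S100a9 stood at 3020 against 288 and 2397 against 275, and the primary granule genes Mpo and Elane, which are made at the promyelocyte stage, at 83.96 against 0.274 (6.06) and 118 against 1.41 (5.63). The receptors Csf3r (6.21 against 5.99) and Cxcr2 (5.14 against 4.56), which mature neutrophils carry, were under 10 and nearly equal in the depots. Genes of cells without CD45 were also seen in OM. Of 17 fibroblast genes, 11 passed, 9 of them only in OM, and 10 were higher there, with decorin (Dcn) at 189 against 1.46 (6.27) and the collagen genes Col3a1 at 80.5 against 0.0973 (6.22) and Col1a1 at 43.7 against 0.119 (5.32). Mgp, a matrix inhibitor of calcification, stood at 49.2 against 0.199 (5.39), and Igfbp6, which binds insulin-like growth factor 2, at 77.7 against 0.444 (5.77). Thy1, which T cells express too, was the exception at 3.34 against 18.3 (-2.15). Mesothelial genes that passed were Krt19 (25.4 against 0.0546, 4.64), Upk3b (23.7 against 0.0682, 4.53), Krt8 (19.9 against 0.213, 4.11) and Aldh1a2 (35.4 against 58.998, -0.72), while Msln (5.27 against 0.01503) and Wt1 (2.16 against 0) did not. Summed over their lists, fibroblast genes reached an FPKM of 825 in OM and 105 in MY, and mesothelial genes 143 and 60.7, of which Gsn and Aldh1a2, neither restricted to these cells, made the larger part in MY.

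Digestive enzyme genes of the pancreas passed the filter for 7 of 14 genes, all only in OM. The elastase Cela2a stood at 40.8 against 1.78, colipase (Clps) at 27.9 against 0.748 and the lipase Pnlip at 16.5 against 0.944. The 14 genes summed to 192 in OM and 12.2 in MY. The adipocyte genes that passed did so only in OM. Lpl (43.3 against 1.05, 4.44), Car3 (22.1 against 1.26, 3.35), Cfd (13.5 against 2.397, 2.10) and Fabp4 (31.6 against 7.55, 1.93) were higher there, but adiponectin (Adipoq, 1.81 against 0.577) and perilipin (Plin1, 0.393 against 0.0901) were near 0 in both. Of the mast cell genes, Cpa3 (10.4 against 0.274, 3.16) and Hdc (12.1 against 2.43, 1.94) were higher in OM, Tpsb2 was listed at 17.9 in OM and at 0 in MY, and Cma1 was nearly equal (24.6 against 21.9, 0.16). Of 9 eosinophil genes, 2 passed, Ear2 (124 against 26.1) and Il5ra (23.2 against 1.26, 3.42), which macrophages and B-1 cells respectively express too, and eosinophil peroxidase (Epx) was listed at 0 in both libraries. The enterocyte list genes other than Epcam (13.04 against 6.88) stayed under 4 in both, endothelial genes other than Esam (3.83 against 17.4, -1.93) and Pecam1 (37.8 against 31.8, 0.25) under 10, and of 8 platelet genes only Pf4 passed. Of the hemoglobin genes, Hbb-b1 stood at 14.8 against 46.5 and Hba-a1 at 0.0498 against 30.6, but its near-identical copy Hba-a2 at 18.6 against 15.3, so the split of reads between these copies is uncertain. The part of these other cells in the differences of the genes described next was not tested.

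**Figure D2:**
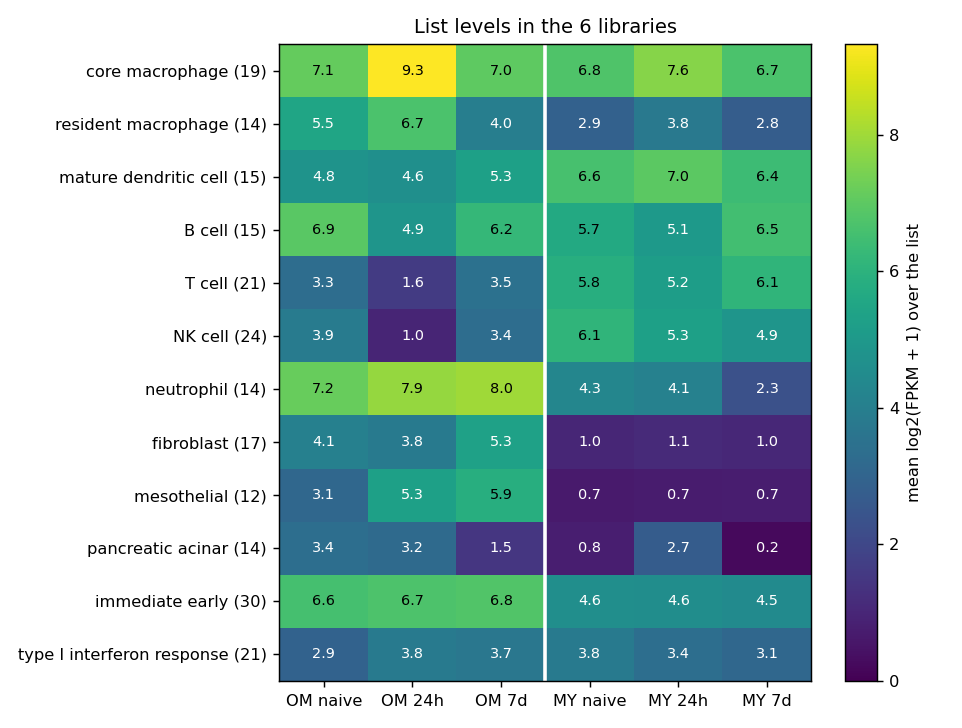
Mean log2(FPKM + 1) over all genes of 12 lists (rows, number of genes in parentheses) in each of the 6 libraries (columns, OM left and MY right of the white line). In the naive pair core macrophage genes average 7.1 and 6.8, NK cell genes 3.9 and 6.1, and fibroblast genes 4.1 and 1.0.

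On the log2(FPKM + 1) scale the largest difference toward OM was that of Retnla, which encodes the secreted protein RELMα, a product of macrophages exposed to interleukins 4 and 13. It had an FPKM of 3681 in naive OM and 23.6 in naive MY (log2 difference 7.22), a ratio of 156. With 0.1 added in place of 1, Retnla (7.28) came after Col3a1 (8.68), Mpo (7.81), Col1a1, Fcrls and Mgp, which were under 1 in MY. Other genes of alternative activation moved with it or against it. The galactose-type lectins Mgl2 (127 against 2.25, 5.31) and Clec10a (88.6 against 10.3, 2.98), the eotaxin Ccl24 (16.6 against 0.386, 3.67) and the chitinase-like Chil3 (157 against 36.2, 2.09) were higher in OM. Ccl22 (19.9 against 199, -3.27) and Socs1 (52.4 against 109, -1.05) were lower there, Ccl17 and the receptor subunit Il4ra lay within 2-fold, at 20.9 against 20.98 and 50.1 against 46.1, and arginase (Arg1, 0.463 against 1.37) was low in both. Among the 10 of 12 genes of this list that passed, 6 were higher and 2 lower, with a median log2 difference of 1.92. The promoter window of Retnla is shown because this gene leads the comparison, and it holds the letters of a STAT6-type core. The window runs from 250 bases before to 50 after the RefSeq start (chr16:48842359-48842658 of GRCm38.p6, plus strand), and its capitals mark TTC and GAA with 4 bases of any kind between them 136 to 145 bases before the start, a core that 8.01% of all 27025 genes with such a window have on either strand. The match describes the sequence and not a bound site.
Retnla: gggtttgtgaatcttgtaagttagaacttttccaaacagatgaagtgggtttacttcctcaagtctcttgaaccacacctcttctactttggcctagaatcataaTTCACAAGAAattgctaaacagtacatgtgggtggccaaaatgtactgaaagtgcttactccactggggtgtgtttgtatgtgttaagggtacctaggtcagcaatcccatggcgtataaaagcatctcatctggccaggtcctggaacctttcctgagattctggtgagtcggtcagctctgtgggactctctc

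Genes of resident tissue macrophages were mostly higher in OM. Of 14 genes, 12 passed, 4 in both libraries and 8 only in OM, which by itself made those 8 higher in OM. Of the 12, 10 were at least 2-fold higher, beside 8.55% of all genes compared, with a median log2 difference of 3.07. Timd4 and Sepp1, given below, were among the 4 that passed in both libraries and were not 2-fold higher. Fcrls, a scavenger-type Fc receptor-like gene known from microglia and resident macrophages, had an FPKM of 105 in naive OM and 0.451 in naive MY (log2 difference 6.19). Pf4, a chemokine gene shared by platelets and resident macrophages, had an FPKM of 167 in naive OM and 2.79 in naive MY (log2 difference 5.47), and the platelet genes Itga2b (0.505 against 0.9197) and Ppbp (0.0866 against 0.0495) were near 0. The hyaluronan receptor Lyve1 (53.5 against 2.26, 4.06), the bridging ligand of dying cells Gas6 (26.3 against 1.17, 3.65), the coagulation subunit F13a1 (64.6 against 4.43, 3.59), the hemoglobin scavenger receptor Cd163 (18.2 against 1.33, 3.04), Folr2 (81.6 against 9.86, 2.93) and the mannose receptor Mrc1 (20.8 against 5.46, 1.75) followed. Timd4, the phosphatidylserine receptor TIM4 that marks self-renewing serosal macrophages, did not follow them, at 27.8 against 23.5 (0.23), and Sepp1, the selenium carrier, was lower in OM, at 227 against 513 (-1.17). Vsig4, the complement receptor of resident macrophages, stood at 27.8 against 0.0374 (4.80). The transcription factor of large peritoneal macrophages, Gata6, was low in both, at 2.06 against 0.298, and only 4 of the 13 genes of its program passed, led by fibronectin (Fn1, 94.2 against 1.87), Saa3 (194 against 14.6, 3.64) and Cxcl13 (107 against 12.6, 2.98). Stromal and mesothelial cells make fibronectin too.

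Pattern recognition and opsonin genes differed in both directions, and many of those higher in OM passed the filter only there, which by itself made them higher in OM. Of 16 genes of Toll-like receptors and their partners, 10 passed, 6 of them only in OM, and 7 were higher, led by the endotoxin co-receptor Cd14 (141 against 7.33, 4.09), Cd180 (33.7 against 5.86, 2.34) and Tlr2 (31.3 against 7.36, 1.95), whereas Tlr12 was lower (2.195 against 14.9, -2.31). Of the Dectin and Clec4 cluster lectins, 8 of 10 members were higher, 4 of the 10 having passed only in OM, among them the Dectin-1 gene Clec7a (55.4 against 13.97, 1.91) and Clec4b1 (94.6 against 1.81, 5.09). Clec4n, the gene of Dectin-2, was the 1 lower member (7.72 against 38.4, -2.18). Fc receptor genes were higher for 7 of 10 members, of which 3 passed only in OM. The inhibitory receptor Fcgr2b (209 against 27.4, 2.88), which B cells also carry, differed more than the activating Fcgr3 (137 against 56.7, 1.25) and Fcgr4 (16.3 against 3.45, 1.96), and the shared gamma chain Fcer1g did not differ by 2-fold (894 against 924). The complement list had 18 members, 8 of them only through OM, of which 10 were higher and 2 lower. The C1q genes lay within 2-fold, at 484 against 315 for C1qa, 724 against 384 for C1qb and 543 against 375 for C1qc. The anaphylatoxin receptors C5ar1 (40.03 against 4.25, 2.97) and C3ar1 (11.4 against 0.347, 3.20) and the central component C3 (124 against 24.1, 2.32) were higher in OM. So were C4b (50.8 against 0.578, 5.04) and the inhibitor Serping1 (59.8 against 1.31, 4.72), which fibroblasts make as well. Factor B (Cfb) was lower (30.4 against 87.8, -1.50).

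A different set of macrophage genes was high in MY. On the log2(FPKM + 1) scale the largest difference toward MY was that of Cd209b, the gene of the lectin SIGN-R1, known from marginal zone and lymph node sinus macrophages, which had an FPKM of 2.59 in naive OM and 324 in naive MY (log2 difference -6.50), a ratio of 125. Genes under 1 in OM, such as Hba-a1 and Gm8221, came before it with 0.1 added, and Apol7c (-5.65 against -5.44 for Cd209b) with 5 added. The scavenger receptor Marco had an FPKM of 10.5 in naive OM and 202 in naive MY (log2 difference -4.15). Spic, a transcription factor of red pulp and bone marrow macrophages that handle heme, stood at 1.099 against 32.3 (-3.99), the oxysterol receptor Nr1h3 (LXRα) at 10.5 against 112 (-3.30) and its partner Rxra at 5.82 against 34.4 (-2.38). Cd5l, a secreted LXR target of tissue macrophages, stood at 5.97 against 29.8 (-2.14). Of 11 iron and heme genes, 1 was higher in OM, transferrin (Trf, 278 against 115), and 4 were lower, 3 of which passed only in MY. Among the lower were the exporter Slc40a1 (ferroportin, 2.98 against 14.97) and the ferroxidase Cp (2.64 against 11.7), while the heme oxygenase Hmox1 (29.5 against 52.8) and the ferritin genes Fth1 (3979 against 3424) and Ftl1 (3900 against 5670) lay within 2-fold. Siglec1 (CD169, 2.13 against 18.2) and Vcam1 (5.94 against 33.1), chosen after their values were seen, were lower in OM, and so was Glycam1 (0.177 against 15.4), a gene of high endothelial venules and thus not of macrophages. Il22ra2, the decoy receptor of interleukin-22, was at 34.5 in MY and listed at 0 in OM. Fabp1, a fatty acid binding protein of liver and gut, was at 28.1 in MY and likewise at 0 in OM. The enterocyte genes Fabp2, Apoa4 and Vil1 were under 1 in both, but of the 10 genes on that list 7 were listed at 0 in OM and 1 in MY. The source of Fabp1 was not tested.

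**Figure D3:**
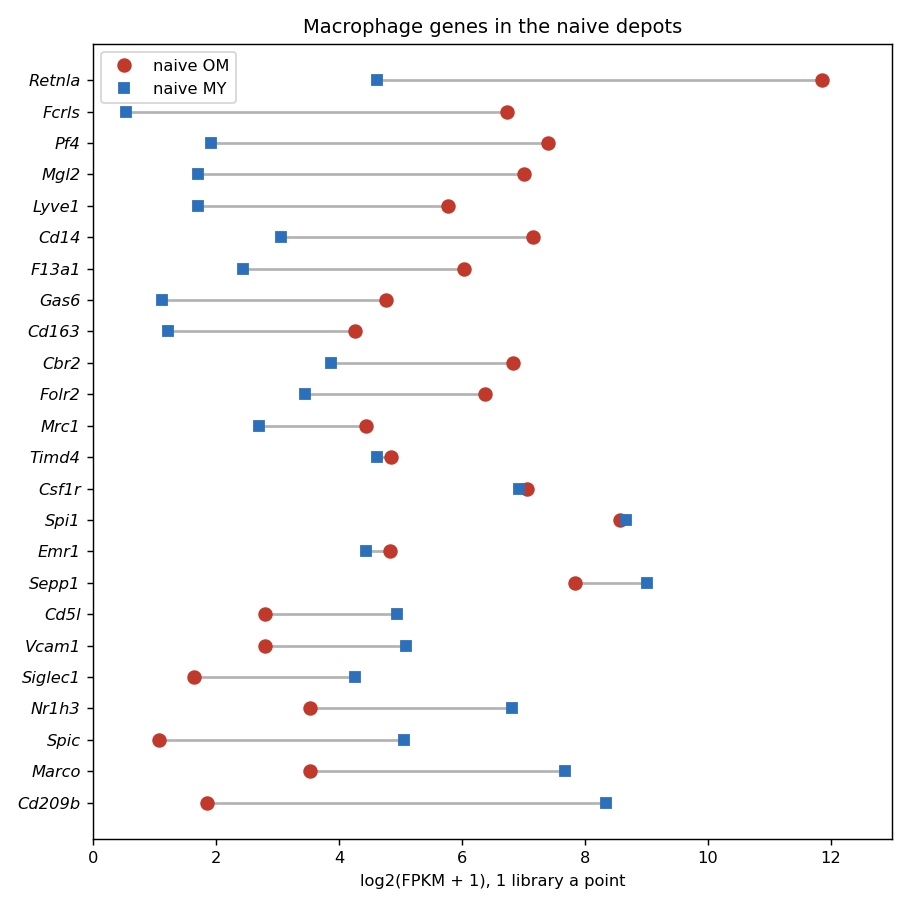
Levels of 24 macrophage genes in naive OM (red circles) and naive MY (blue squares) as log2(FPKM + 1), 1 library a point, with a gray line joining the pair. Retnla to Mrc1 are higher in OM, Timd4 to Emr1 nearly equal, and Sepp1 to Cd209b higher in MY.

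Neighboring genes did not always move together. The 7 Cd209 genes lie within 3743395 to 3748984 (Cd209a) and 4134733 to 4137707 (Cd209g) of chromosome 8 in NCBIM37, the assembly also called mm9. Cd209b and Cd209e (0.293 against 4.57) were lower in OM, Cd209c was near 0 in both, and Cd209a, the mouse gene of DC-SIGN on monocyte-derived dendritic cells, was higher in OM (264 against 11.8, 4.38), as was Cd209f (13.1 against 2.75, 1.91). In the apolipoprotein L cluster of chromosome 15 the genes that passed were all lower in OM. All except Apol7c passed only in MY, which by itself made them lower in OM. Apol7c (77355297 to 77363745) had an FPKM of 12.1 in naive OM and 853 in naive MY (log2 difference -6.03), and Gm8221 (77452631 to 77456620), Apol10b and Apol7b stood at 0.597 against 85.4, 1.62 against 36.9 and 1.697 against 28.9. Their neighbors Apol9a (0.783 against 0.754), Apol10a (0 against 0.0341) and Apol11a (0 against 0) were under 1. Because these copies are alike in sequence, how reads were shared among them is uncertain, as it is for the Ly49 receptor genes of chromosome 6, of which Klra23 had the largest difference at 1.91 against 49.3 (-4.11).

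Lineage transcription factors split between the depots. Of 20 genes, 17 passed, with 4 higher and 4 lower in OM, beside 8.55% and 7.85% of all genes compared. Bhlhe41 (13.1 against 1.33, 2.60), a regulator of self-renewal in macrophages and of B-1 cells, Klf4 (21.6 against 3.82, 2.23), Cebpb and Irf4 (25.5 against 11.1, 1.14) were higher. Spic, Nr1h3, Rxra and the helix-loop-helix factor Id2 (189 against 480.1, -1.34) were lower. Cebpa (21.4 against 25.8) and Irf8 (185 against 270.1) lay within 2-fold. Of 13 monocyte genes that passed, 6 were higher in OM and 7 lay within 2-fold, with a median log2 difference of 0.33. Ccr2 (137 against 36.6, 1.87), Plac8 (1060 against 202, 2.39) and Nr4a1 (186 against 31.2, 2.54) were higher in OM. The Ly6C genes were not, with Ly6c2 at 164 against 184 and Ly6c1 at 9.97 against 14.5. Lipid handling genes differed one by one, since the lipid transfer protein Pltp (601 against 28.9, 4.33) and Lpl were higher in OM, Fabp5 was lower (61.96 against 141, -1.17), and Apoe stood at 2380 against 1202 (0.98).

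Antigen presentation genes of class II were mostly higher in OM, and those of class I mostly lay within 2-fold. All 11 genes of the MHC class II list passed and 7 were higher in OM, with a median log2 difference of 1.10, which fell under 2-fold, to 0.87, at equal sums. Cd74, the invariant chain, had an FPKM of 26905 in naive OM and 11323 in naive MY (log2 difference 1.25), H2-Ab1 an FPKM of 10226 in naive OM and 4487 in naive MY (log2 difference 1.19) and the peptide exchange subunit H2-DMb2 an FPKM of 526 in naive OM and 166 in naive MY (log2 difference 1.66). Their transactivator Ciita lay within 2-fold (53.2 against 38.1), and H2-Eb2 was lower in OM (8.32 against 17.8, -1.01). B cells, whose genes were higher in OM in the same libraries, express class II as well. No gene of the 17 on the class I list was 2-fold higher in OM and 3 were lower, beside 7.85% of all genes compared. These were H2-Q7 (169 against 372, -1.14), H2-Q4 (6.49 against 20.1, -1.49) and the class I transactivator Nlrc5 (6.61 against 18.9, -1.38). H2-Q4 and Nlrc5 passed the filter only in MY, which by itself made them lower in OM. H2-K1 (1945 against 2958), H2-D1 (3256 against 3227) and B2m (4180 against 4833) lay within 2-fold.

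The program of mature, migrating dendritic cells was high in MY. Of 14 members, 10 were lower in OM, beside 7.85% of all genes compared, and none was 2-fold higher. The median log2 difference was -2.42, and 10 of the 14 were at 10 or more in both libraries. The actin bundler Fscn1 had an FPKM of 43.02 in naive OM and 759 in naive MY (log2 difference -4.11), the calcium channel subunit Cacnb3 an FPKM of 5.99 in naive OM and 117 in naive MY (log2 difference -4.08) and the lymph node homing receptor Ccr7 an FPKM of 93.8 in naive OM and 526 in naive MY (log2 difference -2.48). Ccl22, the amino acid oxidase Il4i1 (55.1 against 406, -2.86) and the alternative NF-κB subunit Relb (64.3 against 251, -1.95) were lower in OM too. Cd83 (204 against 185), Cd86 (26.97 against 21.6) and Cd40 (57.4 against 74.05), which B cells and macrophages also carry, lay within 2-fold. Of 12 conventional dendritic cell genes, 4 were higher in OM, 1 was lower and 7 lay within 2-fold, with Zbtb46 at 13.95 against 11.2, Flt3 at 24.6 against 47.2, Cd24a at 272 against 45.1 (2.56) and Itgae at 1.74 against 15.1 (-2.56), and the median of that list turned from 0.21 to -0.0091 once both libraries were set to the same sum. Of 6 plasmacytoid dendritic cell genes, 2 were higher in OM, Spib (190.3 against 52.3, 1.84) and Tcf4 (25.7 against 8.81, 1.45), and 3 lower, Siglech (1.15 against 29.9, -3.85), Ccr9 and Irf7. B cell genes were higher in OM in the same libraries. Which cells the values of Spib, Tcf4 and Cd24a came from was not tested.

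Other genes with large differences toward MY were Pla2g2d (3.44 against 103, -4.54), a secreted phospholipase of lymphoid tissue dendritic cells and macrophages, the anchoring filament protein Lad1 (2.66 against 83.7, -4.53), the HMG-box factor Tox2 (1.33 against 52.3, -4.52), Dapl1 (2.03 against 61.5, -4.36) and Sap25 (0.375 against 26.4, -4.32). Toward OM, 1810046K07Rik (75.1 against 0.5403, 5.63) completed the 15 with the largest differences.

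Chemokine genes differed in both directions. Of 36 ligands, 18 passed, with 9 higher and 5 lower in OM, beside 8.55% and 7.85% of all genes compared. Those higher in OM included the neutrophil attractant Cxcl2 (51.95 against 0.402, 5.24) and the monocyte attractants Ccl2 (29.01 against 1.47, 3.60) and Ccl7 (23.7 against 0.931, 3.68), together with Ccl6 (777 against 34.3, 4.46) and Ccl9 (147 against 6.29, 4.34), which act on CCR1. Cxcl13, which draws B cells into milky spots through CXCR5, stood at 107 against 12.6. Those lower in OM included, among ligands that attract T and NK cells, Ccl5 (345 against 1969, -2.51), Cxcl16 (30.6 against 131, -2.06) and Cxcl10 (12.1 against 35.1, -1.46). The lymphotactin gene Xcl1 was lower in OM too (30.8 against 87.3, -1.47). Ccl5 and Xcl1 are made by T and NK cells themselves. Among 14 receptors that passed, Ccr1 (65.7 against 2.81, 4.13), the scavenging receptor Ackr2 (14.4 against 0.714, 3.16), Ccrl2 (34.1 against 5.903, 2.35), Cxcr5 (122 against 24.2, 2.29) and Ccr2 were higher. Ccr7, Cxcr6 (11.9 against 35.03, -1.48) and Ccr9 (3.19 against 11.1, -1.53) were lower, and Ccr10 was at 12.2 in MY and listed at 0 in OM.

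Cytokine genes were fewer. Il1b (112 against 21.7, 2.31), Il10 (14.7 against 1.35, 2.74), Tnfsf9 (21.003 against 4.91, 1.90) and Ebi3 (60.4 against 28.2, 1.07) were higher in OM and Il15 was lower (3.99 against 15.01, -1.68), while Tgfb1 (119 against 94.2), Tnf (11.1 against 5.89) and Il18 (27.7 against 38.4) lay within 2-fold. Of 10 eicosanoid genes, 5 were higher in OM and 1 lower. Among the enzymes of leukotriene synthesis, 5-lipoxygenase (Alox5, 17.9 against 1.19, 3.11), its activating protein Alox5ap (249.7 against 57.03, 2.11) and Ltc4s (131 against 14.4, 3.09) were higher and Lta4h was nearly equal (89.4 against 91.2). Hpgd, which breaks down prostaglandins, was lower (20.9 against 92.4, -2.09). Of the 6 matrix protease genes that passed, 4 were higher and 1 lower. The neutrophil collagenase Mmp8 (38.4 against 3.57, 3.11), the gelatinase Mmp9 (64.8 against 10.1, 2.57), the urokinase receptor Plaur (111 against 14.5, 2.84) and the inhibitor Timp2 (88.5 against 25.4, 1.76) were higher, the sheddase Adam8 was lower (29.9 against 75.9, -1.32), and Mmp8 and Mmp9 also stand on the neutrophil list. Among checkpoint and costimulation genes the don't-eat-me receptor Sirpa (119.5 against 50.1, 1.24), Pilra (44.1 against 8.196, 2.29) and Lilrb4 (44.7 against 18.8, 1.21) were higher, Icosl was lower (17.4 against 47.98, -1.41), and Cd274, the gene of PD-L1, was nearly equal (26.96 against 22.5). Adhesion genes had no common direction, with the integrin subunit Itgb1 higher in OM (240.2 against 98.97, 1.27) and the tetraspanin Cd63 lower (64.04 against 232, -1.84), and their median turned from 0.13 to -0.10 at equal sums.

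Immediate early genes, which are transcribed within minutes of a stimulus and also during enzymatic dissociation, were higher in OM. Of 30 genes, 26 passed, 18 in both libraries and 8 only in OM, and 22 were at least 2-fold higher and none lower, against 8.55% and 7.85% of all genes compared. Fos, a subunit of AP-1, had an FPKM of 729.8 in naive OM and 8.17 in naive MY (log2 difference 6.32), the second largest difference toward OM on the log2(FPKM + 1) scale. Jun (109 against 9.35, 3.41), Fosb (22.7 against 0.131, 4.39), Junb (1439 against 198, 2.86), Atf3 (140.2 against 6.96, 4.15) and Ier3 (82.3 against 3.96, 4.07) were higher as well, and so were the kinase phosphatase Dusp1 (611 against 35.6, 4.06) and the mRNA decay factor Zfp36 (835 against 144, 2.53). Dusp2 ran the other way within 2-fold (114 against 169.8), and Nfkbia (329 against 271) and Ier5 (116 against 89.9) were within 2-fold. Heat shock genes were split, for the inducible copies Hspa1a (31.2 against 0.473) and Hspa1b (30.1 against 0.719), between which reads may be shared, and Hspb1 (19.9 against 0.793) were higher in OM, whereas Hspd1 (83.9 against 69.6), Dnajb1 (57.4 against 48.6) and Hsp90aa1 (105 against 71.9) lay within 2-fold. The part of dissociation in these values was not tested. Promoters of a pair of these genes are printed to show the elements of their class. In Dusp1 (chr17:26508423-26508722 of GRCm38.p6, minus strand) the capitals mark the cyclic AMP response element (TGAC followed by GTCA), and in Zfp36 (chr7:28379179-28379478 of GRCm38.p6, minus strand) a CArG box, the element bound by serum response factor. The first is found in 3 of the 25 immediate early genes with a window and in 2.03% of all genes, the second in 2 and 1.81%, with both strands searched.
Dusp1: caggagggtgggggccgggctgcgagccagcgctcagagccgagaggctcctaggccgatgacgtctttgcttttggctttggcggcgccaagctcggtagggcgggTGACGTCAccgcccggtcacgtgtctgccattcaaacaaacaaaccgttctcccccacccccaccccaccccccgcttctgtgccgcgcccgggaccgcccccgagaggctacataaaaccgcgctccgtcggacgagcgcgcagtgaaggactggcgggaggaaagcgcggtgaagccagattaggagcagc
Zfp36: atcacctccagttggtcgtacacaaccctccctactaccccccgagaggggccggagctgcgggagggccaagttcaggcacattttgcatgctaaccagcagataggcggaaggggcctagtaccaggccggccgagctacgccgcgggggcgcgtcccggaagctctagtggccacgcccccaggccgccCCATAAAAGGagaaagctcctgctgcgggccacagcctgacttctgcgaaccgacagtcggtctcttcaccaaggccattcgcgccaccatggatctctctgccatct

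Among the listed interferon-stimulated genes that passed the filter, some were lower in OM and the rest lay within 2-fold. The interferon-induced Ifitm2, Ifitm3 and Ifitm6, which are outside these lists, were higher in OM (Ifitm3 at 965 against 168). Of the 21 type I interferon genes, 11 passed, 3 of them only in MY. Of these 11, 5 were at least 2-fold lower, beside 7.85% of all genes compared, and none was 2-fold higher. Their median log2 difference was -0.83. The antiviral GTPase Mx1 had an FPKM of 1.47 in naive OM and 22.7 in naive MY (log2 difference -3.26), the deubiquitinase-like Usp18 an FPKM of 12.7 in naive OM and 66.03 in naive MY (log2 difference -2.29) and the ubiquitin-like Isg15 an FPKM of 23.4 in naive OM and 69.6 in naive MY (log2 difference -1.53). Irf7 (27.9 against 74.5, -1.38) and Stat2 (8.605 against 20.6, -1.17) were lower too, while Oas1a (18.2 against 15.5) and Ddx58 (25.3 against 19.6) lay within 2-fold on the other side. Of 11 interferon-γ genes, 3 of which passed only in MY, 4 were lower, namely Gbp5 (5.43 against 23.4, -1.92), Tgtp1 (1.68 against 10.05, -2.04), Irf1 (87.2 against 229, -1.38) and Socs1. The promoters of Isg15 and Stat2 are shown as examples of genes lower in OM that hold the interferon-stimulated response element. Capitals mark GAAA repeated after 2 bases of any kind, on either strand, which 9 of the 15 type I interferon genes with a window and 3.99% of all genes hold. Oas1a and Ddx58, which were not lower in OM, are among these 9, whereas the lower genes Mx1, Usp18 and Irf7 are not. Only 15 of the 21 genes had a window, and a gene without one could not be among the 9. Whether holding the element went with the direction of the difference was not tested. The window of Isg15 is chr4:156200769-156201068 of GRCm38.p6, minus strand and holds 3 overlapping matches, and that of Stat2 is chr10:128270248-128270547 of GRCm38.p6, plus strand and holds 1.
Isg15: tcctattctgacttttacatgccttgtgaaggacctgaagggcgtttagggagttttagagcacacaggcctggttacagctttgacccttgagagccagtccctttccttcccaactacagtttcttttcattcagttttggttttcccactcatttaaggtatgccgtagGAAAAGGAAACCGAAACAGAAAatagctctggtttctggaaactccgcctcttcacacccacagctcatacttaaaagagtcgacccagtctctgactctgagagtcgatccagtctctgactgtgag
Stat2: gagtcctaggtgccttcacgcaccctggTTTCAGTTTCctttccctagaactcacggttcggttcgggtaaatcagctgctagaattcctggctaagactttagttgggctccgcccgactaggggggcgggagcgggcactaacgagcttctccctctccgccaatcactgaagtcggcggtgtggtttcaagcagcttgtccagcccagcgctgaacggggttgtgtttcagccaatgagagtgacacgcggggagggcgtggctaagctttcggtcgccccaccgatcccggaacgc

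Genes of the cell cycle and of oxidative phosphorylation hardly separated the depots. None of 16 cell cycle genes and none of 26 oxidative phosphorylation genes that passed differed by 2-fold, with medians of -0.10 and -0.074. Birc5 stood at 35.1 against 43.8, Mcm6 at 71.4 against 68.5, Atp5b at 688 against 588 and Cox4i1 at 606 against 687. Of all genes compared, 83.6% lay within 2-fold. Of 16 glycolysis genes, 13 did so, a share like that of all genes. The glucose transporter Slc2a1 was higher in OM (61.5 against 22.01, 1.44), the regulator Pfkfb3 (13.1 against 63.1, -2.19) and the myeloid hexokinase Hk3 (14.8 against 41.2, -1.42) were lower, and the median turned from 0.19 to -0.047 at equal sums. Of 18 lysosome genes, 15 lay within 2-fold, again a share like that of all genes, and 3 were higher in OM. Among the higher were the protease Ctsc (329 against 136, 1.27) and Lamp2 (96.4 against 39.6, 1.26), while Ctsd (261 against 404) and Lamp1 (275 against 329) lay within 2-fold. Of the retinoid genes only Rxra passed 2-fold.

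**Figure D4:**
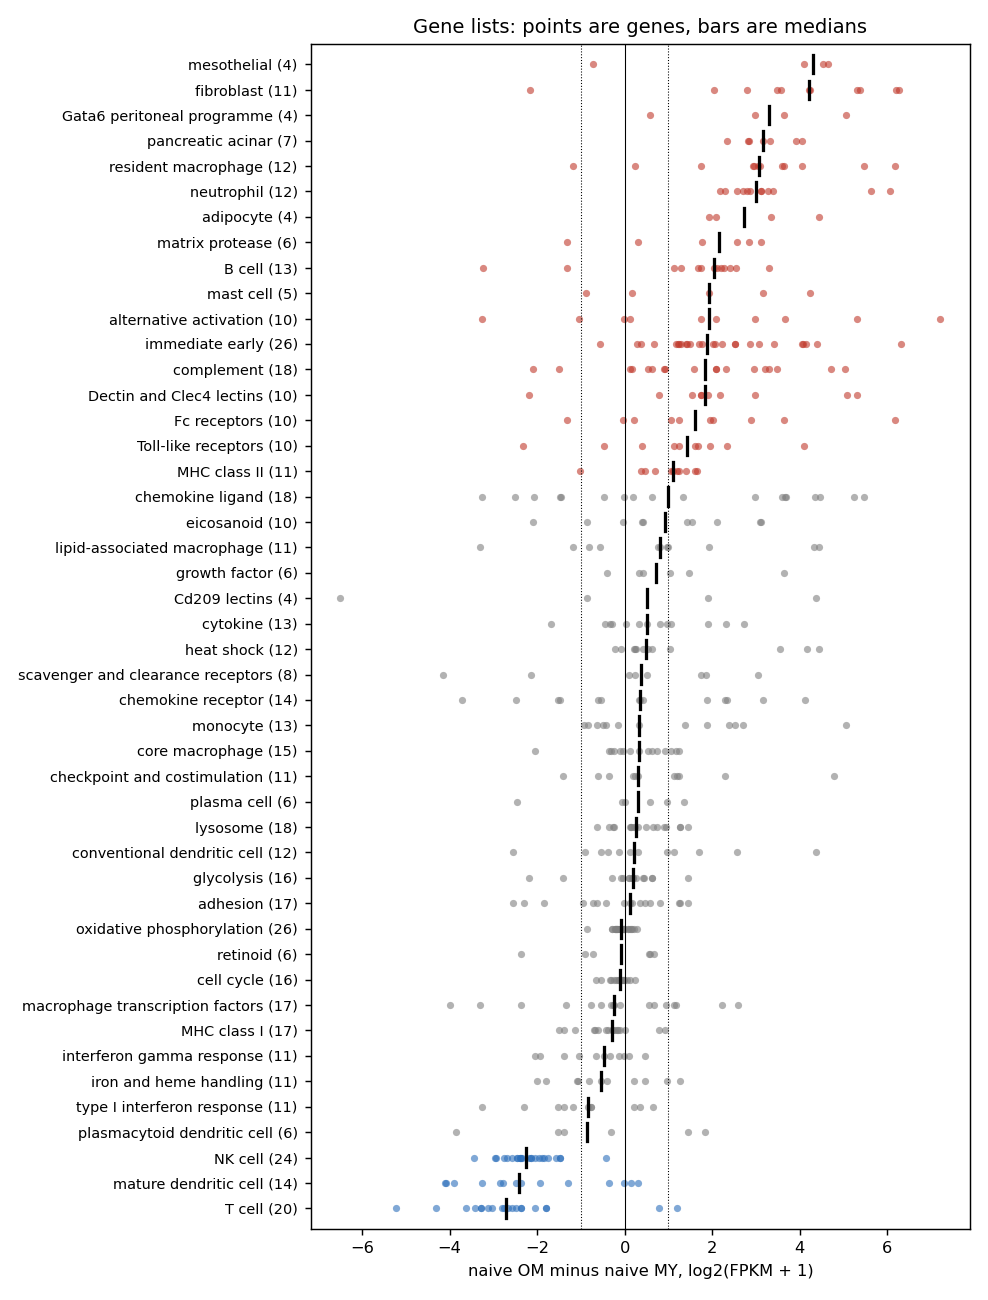
Log2 difference (naive OM minus naive MY, log2(FPKM + 1)) of every gene that passed the filter (points) in each list with 4 or more such genes (rows, number in parentheses), with the list median as a black bar and dotted lines at 2-fold. Lists with a median of 1 or more are red, those with -1 or less blue. Mesothelial and fibroblast lists are at the top, NK cell, mature dendritic cell and T cell lists at the bottom, and cell cycle and oxidative phosphorylation lists lie close to 0.

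Many differences of the naive pair recurred after injection. Of the 603 genes higher in naive OM, 364 (60.4%) were also at least 2-fold higher in OM at 24 h and 328 (54.4%) at 7 d, whereas of all 7056 genes 9.91% and 6.39% were. Of the 554 lower genes, 384 (69.3%) were lower at 24 h and 300 (54.2%) at 7 d, beside 9.89% and 5.7% of all genes. At both times 278 of the higher and 255 of the lower genes recurred. Cd209b was at 3.95 in OM and 976 in MY at 24 h, and at 2.63 and 458 at 7 d, so the OM libraries were all under 4 and the MY libraries all above 300. Fcrls was at 169 and 1.41 at 24 h, and at 8.27 and 0.106 at 7 d, where the OM level was far below its naive one. Retnla was at 2402 and 221 at 24 h, and at 311 and 5.97 at 7 d. Fos stayed apart at both times, with log2 differences of 7.35 and 7.26.

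Some list medians changed after injection, although the difference between times was not tested. The MHC class II median was 1.10 in the naive pair, 0.11 at 24 h, where Cd74 was listed at 0 in OM, and 0.063 at 7 d. The B cell median was 2.03, 0.18 and 0.51 at the same times, so both medians were nearer 0 after injection. The type I interferon median turned from -0.83 to 0.82 and 0.40. The resident macrophage median was 3.27 at 24 h and 1.49 at 7 d, that of the mature dendritic cell list -3.21 and -1.58, and that of the immediate early list 2.44 and 2.26, each on the side of its naive value.

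**Figure D5:**
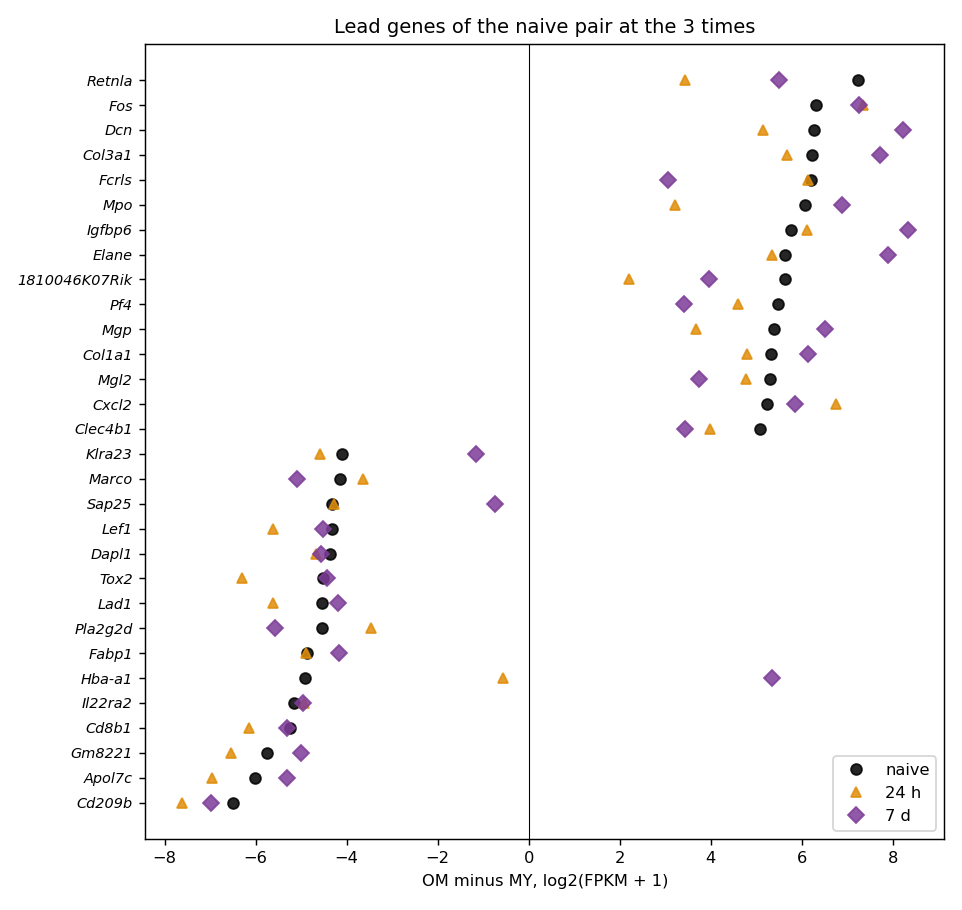
Log2 difference between OM and MY, as log2(FPKM + 1), of the 15 genes with the largest difference in each direction in the naive pair, at the naive time (black circles), 24 h (orange triangles) and 7 d (purple diamonds) after injection. Points of genes listed at 0 in a library depend on the 1 added to the FPKM. Hba-a1 alone changes side, at 5.33 on day 7.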

How the data were processed

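Sorted macrophages of 2 tissues at 3 times gave 6 libraries, 1 per condition, of which the naive pair was compared. The authors inspected read quality (FastQC 0.11.4), mapped the reads on the mm9 assembly (STAR 2.4.2a, UCSC gene models) and deposited FPKM from Cufflinks per gene symbol. Read counts were not used here, so no count test was run, and depth per value is unknown. Whether counting used strand is not given in the sources used here.

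Differences were computed as log2(FPKM + 1) with Python 3.11.15, numpy 2.4.6 and pandas 2.3.3 over genes that reached an FPKM of 10 in a naive library. This scale understates the change of low genes. With 1 library per condition there is no replicate spread and no test. A count was taken as unchanged within 1.5 times and a log2 value within 0.58. The calculation was tested on simulated data of 7056 genes, where all 200 genes given a 4-fold change were found with 0 false calls. The simulated noise had a standard deviation of 0.1 on the log2 scale, far below the 2-fold limit, so this outcome was set by the design. It checks the arithmetic and gives no rate of false calls for the real libraries. The genes compared, the 53 lists and 10 further lists were chosen with earlier results of these data known, the further lists after their values were seen. Genes were named by a rule: the 15 largest differences in each direction, leaving out genes of short RNAs, and in each list the defining, the highest and the most different members. Genes outside it were chosen with their values in view, and some list members are not reported here. Alternatives were pseudocounts of 0.1 and 5, 2 rescalings, 4 other filters on low values and leaving out short RNA genes. Positions come from NCBIM37 with GENCODE M1, which held the symbols of 6666 of the 7056 genes. Promoter windows come from RefSeq on GRCm38.p6, another build than that of the files, and were matched by symbol.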

Additional observations from a re-analysis of the deposited data

Results flagged for a closer look

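Some genes changed side between the naive pair and a pair after injection, past 2-fold in both directions. Of all 7056 genes, 7 went from higher to lower in OM and 6 from lower to higher at 24 h, and 3 and 11 did so at 7 d. Those described here are the ones among the 15 largest differences in each direction and the list members, leaving out genes listed at 0, together with 1 list. None of these differences between times was tested, since each rests on 1 library a side. Hba-a1 had a log2 difference between OM and MY of -4.91 in the naive pair and of 5.33 at 7 d. Cxcl10, the interferon-induced ligand of CXCR3, went from -1.46 to 2.50 at 24 h, with an FPKM of 124 in OM and 21.2 in MY, and to 2.98 at 7 d. Isg15 went from -1.53 to 1.10 at 7 d. Clec4n went from -2.18 to 1.03 at 24 h, where it reached an FPKM of 124 in OM and 60.3 in MY. Tnfrsf17, the plasma cell receptor BCMA, went from -2.46 to 1.04 at 24 h and Ctla4 from 1.19 to -1.05. Esam, of endothelial cells and platelets, went from -1.93 to 1.39 at 7 d. The median of the mast cell list, with 5 genes, went from 1.94 to -1.88 at 24 h.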

How the results depend on the processing

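No paired analysis was possible because the depots hold 1 library per condition, and no library could be left out. The count of genes at least 2-fold higher in naive OM moved from 603 to 1068 with no filter, the same as with an FPKM of 1 or more in 1 library, and to 299 where both libraries had to reach 10. The lower count moved from 554 to 1051 and 219 under the same filters, which by construction change the genes compared. Of the 53 lists, 19 had a median of 1 or more and 5 of -1 or less. The latter number was 8 after rescaling to a sum of 1000000 and 3 with no filter. All 30 genes with the largest differences kept at least 2-fold in their direction under both pseudocounts and both rescalings, but their values and ranks moved. A pseudocount of 0.1 moved 16 of them by 0.58 or more, a pseudocount of 5 moved 26 and rescaling to equal sums 5, and Col3a1 went from 6.22 to 8.68 and 4.07 under the pseudocounts. Among list medians past 2-fold, the mesothelial one turned to -0.72 where both libraries had to reach 10, which left Aldh1a2 alone, and the platelet one, of Pf4 alone, turned to -0.74 with an FPKM of 1 or more in 1 library and to -0.059 with no filter, as other genes joined it. Of 499 list medians recomputed, 435 moved by less than 0.58. Counts of naive differences that recurred at 24 h and 7 d, recomputed under alternatives chosen after seeing the data, stayed within 1.5 times. With a pseudocount of 5, however, 209 of the 434 lower genes recurred at 7 d, and with median-ratio rescaling 278 of 583.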

Other observations

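Several gene groups outside the lists above also separated the naive depots. They were put together after their values were seen, so their counts are descriptions. Interferon-induced transmembrane genes were higher in OM for 3 of 4 members, with Ifitm3 at 965 against 168, Ifitm2 at 566 against 111 and Ifitm6 at 151 against 37.004, and Ifitm1 nearly equal at 13.7 against 13.005. Guanylate-binding proteins were lower for 4 of 7 members, led by Gbp8 (4.76 against 50.97, -3.17) and Gbp4 (5.4 against 26.6, -2.11). All 4 passed the filter only in MY, which by itself made them lower in OM, and the 3 at 10 or more in both libraries lay within 2-fold. Genes known from B-1 cells, the innate-like B cells of serosal cavities, were higher in OM for 7 of 10 members, 4 of the 10 having passed only in OM. Among the higher were Zbtb32 (138 against 12.1, 3.41), Fcrl5 (55.6 against 3.501, 3.65) and the interleukin-5 receptor subunit Il5ra (23.2 against 1.26, 3.42). Cd5, which T cells express too, was lower (13.5 against 49.5, -1.80) and Spn stood at 21.4 against 38.7.

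Ribosomal protein genes were shifted a little and together in the naive pair, but not after injection. The median was -0.12 at 24 h and -0.015 at 7 d for the large subunit, and -0.093 and -0.026 for the small subunit. Of 49 genes of the large subunit, the 45 that passed the filter were all higher in OM, by 0.032 to 0.92 on the log2 scale with a median of 0.49, and all 31 of the small subunit by 0.20 to 1.15 with a median of 0.60. Rescaling both libraries to the same sum left medians of 0.26 and 0.36, where the median of all genes was -0.19, and turned the sign of 1 and 1 of these genes. Within the Ms4a family the 4-span genes split, with the B cell gene Ms4a1 and Ms4a8a (19.4 against 4.44, 1.91) higher in OM and Ms4a4b (72.6 against 431, -2.55) and Ms4a6b (40.4 against 105, -1.35) lower. Of the Cd300 family, Cd300lg (13.9 against 1.27, 2.71), Cd300lf (34.7 against 12.2, 1.44) and Cd300lb (14.5 against 5.31, 1.30) were higher. Cd300lg and Cd300lb passed the filter only in OM. Short RNA genes made up 24 of the genes compared, and 12 of them were listed at 0 in OM and 5 in MY.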
